A study of Mus musculus with 3 samples.

Results

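Expression of 4 cytokine genes that stromal cells supply to early T cells (Il7, Kitl, Flt3l and Il15) and of their 4 receptor genes (Il7r, Kit, Flt3 and Il15ra) was measured in embryonic thymuses. The 8 genes were chosen as ligand and receptor pairs, out of 27998 genes counted, and each was read by cell source and by genotype. Single-cell RNA-Seq by 3' end counting of unique molecular identifiers (UMIs, which mark single captured transcripts) had been run on trypsin-digested thymic lobes of mouse embryos, all of strain C57BL/6 and between 13 and 13.5 days of gestation. There were 3 libraries, with 1 per genotype. They came from wild-type embryos (control), from Tbx1neo2/neo2 embryos, which carry a neomycin insertion in an intron of both Tbx1 alleles and model 22q11.2 deletion syndrome, and from Foxn11089/1089 embryos, which carry the 1089 mutation in both alleles of Foxn1, the transcription factor that directs thymic epithelial cell (TEC) differentiation. Thymuses of both mutants are hypoplastic. The number of embryos per library is not given in the sources used here.

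IL-7 and KIT ligand (also called stem cell factor) are made by thymic stroma and sustain the survival and proliferation of the progenitors that seed the thymus. FLT3 ligand acts on early lymphoid and dendritic progenitors. IL-15 is usually held on the surface of the cell that makes it by IL-15 receptor alpha and is presented from there to innate-like lymphoid cells. The receptors of IL-7 and IL-15 share the common gamma chain and signal through JAK and STAT5, whereas KIT and FLT3 are receptor tyrosine kinases.

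Each cell was assigned to a source by 1 marker: Epcam for epithelium, Pdgfra for mesenchyme, Cdh5 for endothelium and Ptprc (CD45) for hematopoietic cells. A cell needed at least 1 UMI of that marker and 0 of the other 3. This gave 2106, 827 and 3885 Epcam-positive cells in the control library, the library labelled Tbx1neo2/neo2 and the Foxn11089/1089 library, in that order, which is kept for all sets of 3 values. There were 973, 1449 and 2453 Pdgfra-positive cells, 47, 94 and 75 Cdh5-positive cells and 843, 187 and 285 Ptprc-positive cells, out of 5932, 5516 and 11772 kept cells. Red blood cells, with at least 20% of UMIs from hemoglobin genes, numbered 366, 374 and 2338. They should hold none of these transcripts and served as a reference level for RNA from other cells. Whether that RNA was free or came from a second cell under the same barcode was not tested. Their Il7 UMIs lay in few cells, with 22 UMIs in 9, 44 in 11 and 877 in 209 cells. Wider lists of 6 markers gave the same source for 81.9% to 98.6% of the cells assigned by 1 gene.

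The libraries held between 82936619 and 204655055 UMIs, and 17 to 28 barcodes were shared by any pair of them. The targeted gene Tbx1 was no lower where the label names its mutant: it had 114, 656 and 1102 UMIs over the kept cells of the 3 libraries, or 1.39, 4.81 and 5.43 counts per 1e6 UMIs (CPM). The text therefore calls the second library by its label. Foxn1 had 38.4, 34.6 and 76.5 CPM. A 3' tag may lie outside the altered part of a gene, so the Foxn1 level checks that label little. The paper that reported the data gives reduced Tbx1 levels for Tbx1neo2/neo2 embryos and states that the embryonic thymus does not express Tbx1. Why Tbx1 was no lower under that label was not tested. Cells differed in depth, with a median of 16050, 40245 and 19120 UMIs per Epcam-positive cell and 19844, 48848 and 22929 UMIs per Ptprc-positive cell.

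The Epcam-positive cells were not of 1 kind in all libraries. A UMI of a parathyroid marker (Gcm2 or Pth) was in 7.17%, 0.363% and 61.2% of them, but also in 4.64%, 0% and 49.1% of red blood cells. At least 1 of 4 thyroid markers was in 0.807%, 21.5% and 1.67% of them. At least 2 of 7 thymocyte markers were in 8.83%, 29.99% and 10.5% of them, and the 7 markers summed to 82.9, 60.6 and 52.0 CPM, against 721, 647 and 220 CPM in Ptprc-positive cells. The part of these cells in the levels of the cytokines and receptors was not tested, apart from the subsets given beside them.

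With 1 library per genotype there is no replicate check and no test between genotypes. Levels are in CPM, the gene's UMIs over all UMIs of the source, with exact Poisson 95% intervals, and log2 ratios against control have exact binomial 95% intervals. Intervals cover counting error alone. Levels are compared between cells and libraries, not between genes. The median log2 ratio over all genes with at least 30 UMIs in the pair of libraries was not 0. In the 4 sources it lay between 0.38 and 0.40 for the library labelled Tbx1neo2/neo2 and between 0.21 and 0.27 for Foxn11089/1089, so a gene's distance from that median is given where it changes the reading.

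Among the stromal sources, Il7 was largely an epithelial transcript. Epcam-positive cells held 222 CPM (217 to 227, from 7561 UMIs) in control, 307 (302 to 313, 11120 UMIs) in the library labelled Tbx1neo2/neo2 and 275 (271 to 278, 22220 UMIs) in Foxn11089/1089, and they contained 92.0%, 82.4% and 83.6% of the Il7 UMIs of the kept cells in their libraries. Pdgfra-positive cells held 2.46, 1.89 and 3.50 CPM, Cdh5-positive cells 2.70, 0.791 and 2.45 CPM and Ptprc-positive cells 1.91, 0.939 and 2.89 CPM. None of these was above the red blood cells, at 5.89, 5.91 and 25.1 CPM, so they were not told apart from RNA of other cells. The order among the 3 low sources was mostly within counting error. The Epcam-positive level was 90.2-fold, 162-fold and 78.3-fold that of Pdgfra-positive cells.

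**Figure D1:**
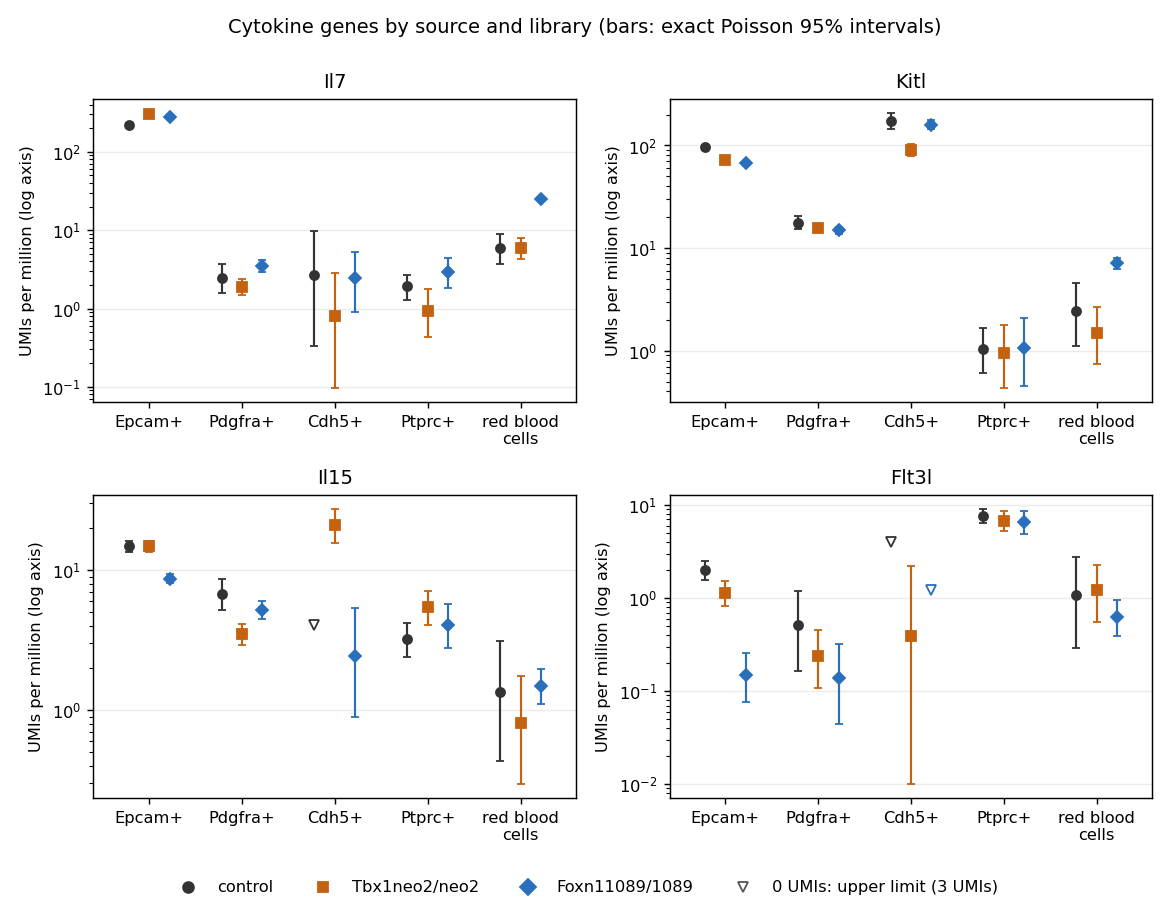
Levels of the 4 cytokine genes in CPM (log axis) in 4 cell sources and red blood cells of each library, with exact Poisson 95% intervals. Open triangles mark 0 UMIs, drawn at the level that 3 UMIs would give. Il7 stands far above the other sources in Epcam-positive cells, and Kitl is highest in Cdh5-positive cells, with 174, 90.6 and 160 CPM.

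The Il7 level per epithelial UMI was higher than control in both mutant libraries. The library labelled Tbx1neo2/neo2 had a log2 ratio of 0.47 (0.43 to 0.51) and Foxn11089/1089 one of 0.31 (0.27 to 0.35). These ratios lay 0.07 and 0.04 above the median of all genes, at percentiles 54.1 and 52.2, so Il7 moved about as far as the typical epithelial transcript. Thinned to 5000 UMIs per cell, an Il7 UMI was present in 62.7%, 63.2% and 62.4% of Epcam-positive cells (134, 116 and 489 shallower cells left out), against 1.78%, 1.41% and 4.41% of red blood cells. The 3 epithelial shares overlapped in their intervals. Without thinning they were 83.8%, 71.5% and 77.3%. The tenth of thinned Epcam-positive cells with the most Il7 UMIs held 33.4%, 33.3% and 35.7% of them.

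Kitl, the gene of KIT ligand, had several stromal sources, and their summed levels followed 1 order in the 3 libraries. Cdh5-positive cells held 174 CPM (146 to 207) in control, 90.6 (79.2 to 103) in the library labelled Tbx1neo2/neo2 and 160 (144 to 176) in Foxn11089/1089. Epcam-positive cells held 96.6, 72.7 and 67.0 CPM, and Pdgfra-positive cells held 17.7, 15.9 and 14.8 CPM. Ptprc-positive cells, at 1.05, 0.939 and 1.05 CPM, were no higher than red blood cells at 2.41, 1.48 and 7.13 CPM. In the order Cdh5, Epcam, Pdgfra and Ptprc, each neighbouring pair of summed levels was apart beyond counting error, but the thinned share of cells with a Kitl UMI in the library labelled Tbx1neo2/neo2 was 25.6% (16.4 to 36.8) for Cdh5-positive and 29.5% (26.2 to 33.0) for Epcam-positive cells. The endothelial excess over epithelium was 1.81-fold (1.502 to 2.15), 1.25-fold (1.08 to 1.43) and 2.38-fold (2.15 to 2.64). Epcam-positive cells nevertheless held most Kitl UMIs of the kept cells, with 84.3%, 60.6% and 65.4% of the library totals, whereas Pdgfra-positive cells held 4.42%, 13.9% and 6.49%.

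Epithelial Kitl was lower than control in both mutant libraries, with log2 ratios of −0.41 (−0.49 to −0.34) in the library labelled Tbx1neo2/neo2 and −0.53 (−0.59 to −0.46) in Foxn11089/1089. Against the median of all genes these were −0.81 and −0.79, at percentiles 15.1 and 16.2. Each kept its sign in 12 of 12 alternative settings, between −0.78 and −0.13 and between −0.76 and −0.35. The thinned share of Epcam-positive cells with a Kitl UMI was 36.0%, 29.5% and 23.6%, against 1.07%, 0.282% and 1.76% of red blood cells, so both readouts were lower in the mutants. Endothelial Kitl was −0.95 (−1.26 to −0.62) in the library labelled Tbx1neo2/neo2, with thinned shares of 48.7%, 25.6% and 45.5%, but −0.13 (−0.42 to 0.17) in Foxn11089/1089. Measured from the median of all genes, these ratios were −1.35 and −0.34, with both intervals below it. In Pdgfra-positive cells the ratios were −0.16 (−0.41 to 0.09) and −0.25 (−0.50 to 0.00). Against the median of all genes they were −0.56 and −0.46, and both intervals lay below it.

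Il15 was counted from far fewer UMIs. Its Epcam-positive levels were 14.8 CPM (13.5 to 16.1), 14.8 (13.6 to 16.1) and 8.71 (8.08 to 9.38). Pdgfra-positive cells held 6.76 (5.23 to 8.60), 3.50 (2.93 to 4.15) and 5.22 CPM (4.499 to 6.02), and Ptprc-positive cells 3.20, 5.42 and 4.07 CPM. Epithelium stood above mesenchyme in each library, by 2.19-fold, 4.24-fold and 1.67-fold. Epithelial Il15 was lower in Foxn11089/1089, with a log2 ratio of −0.76 (−0.93 to −0.60) that kept its sign in 11 of 11 alternatives, while the library labelled Tbx1neo2/neo2 was at 0.00 (−0.18 to 0.18) there, or −0.40 against the median of all genes (percentile 29.9), and at −0.95 (−1.39 to −0.50) in Pdgfra-positive cells. Thinned shares of Epcam-positive cells with an Il15 UMI were 7.35%, 6.61% and 4.95%.

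Endothelial Il15 also differed between the libraries. There were 0 UMIs in the 47 Cdh5-positive control cells, where 3 UMIs would be 4.06 CPM. The library labelled Tbx1neo2/neo2 had 53 UMIs in 94 cells, 21.0 CPM, and Foxn11089/1089 had 6 UMIs in 75 cells, 2.45 CPM. After thinning, a UMI was found in 0 of 39 control cells, which allows a share of up to 7.69%, in 21.8% of 78 cells and in 3.03% of 66 cells. The level in the library labelled Tbx1neo2/neo2 was 5.17-fold the floor of 3 UMIs in control, and the exact lower limit of its ratio to control was 4.06-fold. It rests on the few endothelial cells of 1 library each.

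Flt3l was not mainly stromal. Ptprc-positive cells held 7.64 CPM (6.35 to 9.11), 6.78 (5.23 to 8.64) and 6.56 (4.87 to 8.65), which overlapped among the libraries, whereas Epcam-positive cells held 1.99, 1.13 and 0.148 CPM from 68, 41 and 12 UMIs. Pdgfra-positive cells had 5, 9 and 5 UMIs, and Cdh5-positive cells 0, 1 and 0. The feature counted as Flt3l (ENSMUSG00000089989) is a locus named Gm45713 in GENCODE M21 that overlaps Flt3l on chromosome 7, so reads of the 2 cannot be told apart and the levels may miss part of Flt3l.

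Of the 7 member genes with at least 30 UMIs in Epcam-positive cells, 0 were more than 2-fold higher and 1 (Il7r) more than 2-fold lower in the library labelled Tbx1neo2/neo2, where 16.7% of all genes tested were higher and 4.88% lower. In Foxn11089/1089, 0 were higher and 4 were lower (Il7r, Kit, Flt3l and Il15ra), where 16.3% of all genes were higher and 8.44% lower. Il7r passed the UMI minimum through the control library in both comparisons, and Flt3l did so in that of Foxn11089/1089. In Foxn11089/1089 their levels, 0.0618 and 0.148 CPM, were under those of red blood cells, 0.515 and 0.630 CPM. Epithelial Kit, at 0.729 CPM, was level with them at 0.716 CPM. Il15ra was the lower member that stood above red blood cells, at 1.77 against 0.115 CPM, so the count itself is no result about the members. For Il7r these ratios rest on 2 and 5 UMIs against 78 in control and were −5.37 (−8.44 to −3.47) and −5.21 (−6.87 to −3.93). The first turned to 0.45 when cells were counted whatever other markers they held. Thymocyte markers were in Epcam-positive cells of the 3 libraries, as given above, and innate-like lymphoid markers summed to 182, 10.0035 and 2.84 CPM in them. The part of lymphoid RNA in these receptor ratios was not tested. In Pdgfra-positive cells 0 of 4 members were past 2-fold in either library. Of all genes 18.5% were higher and 3.9% lower in the library labelled Tbx1neo2/neo2, and 6.15% and 4.11% in Foxn11089/1089. In Cdh5-positive cells Il15 alone of 3 members was past 2-fold in the library labelled Tbx1neo2/neo2 (25.7% of all genes were higher and 4.51% lower), and 0 of 2 in Foxn11089/1089 (10.8% and 4.48%). Endothelial Il15 passed the UMI minimum through the library labelled Tbx1neo2/neo2 alone, with 53 UMIs against 0 in control. Its call followed from passing and is no result about the members.

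**Figure D2:**
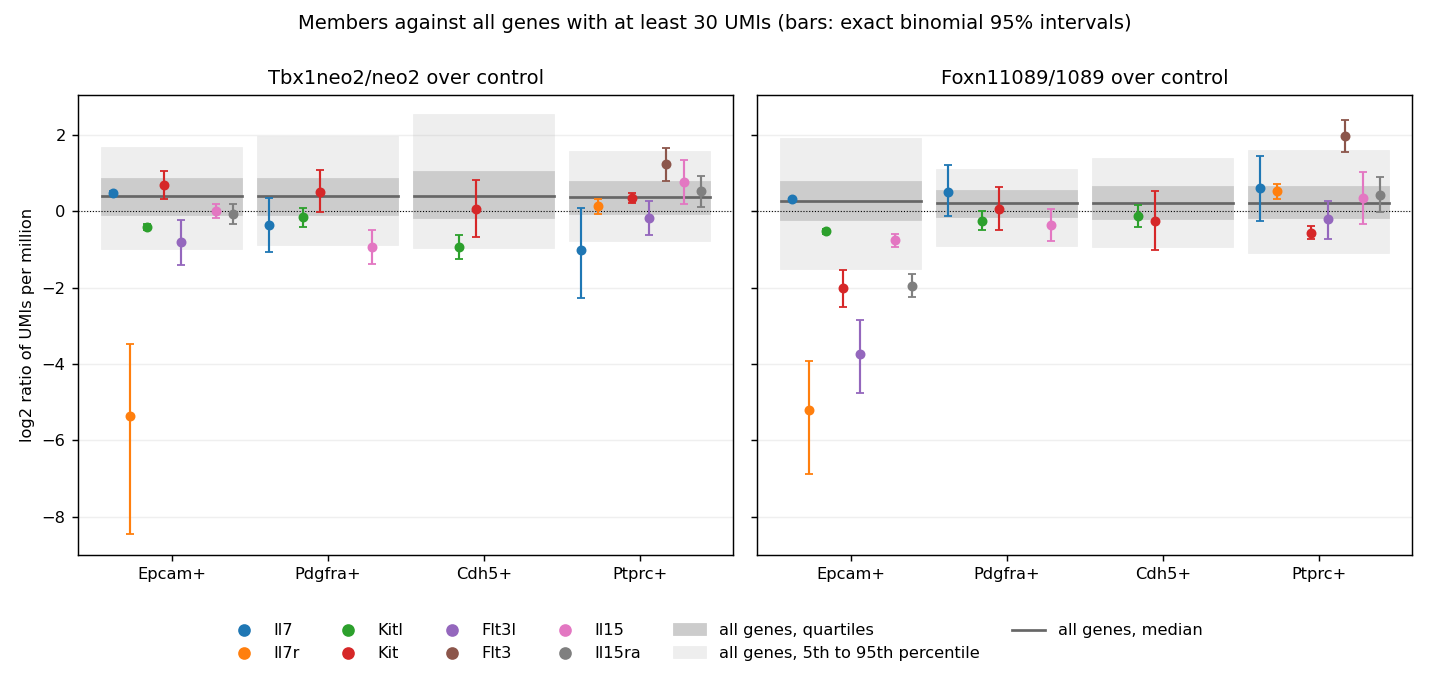
Log2 ratios of the member genes against control, by cell source, for the library labelled Tbx1neo2/neo2 and Foxn11089/1089, with exact binomial 95% intervals. The spread of all genes with at least 30 UMIs is drawn beside them. Flt3 lies at 1.22 and 1.96 in Ptprc-positive cells, while epithelial Il7 lies near the median of all genes.

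Epcam-positive cells with a Foxn1 UMI were compared with those without, since FOXN1 marks TECs among the epithelial cells. They numbered 1307, 524 and 2594 against 799, 303 and 1291, and they were deeper, with medians of 16648, 46539 and 21188 UMIs against 14545, 22153 and 12168. Il7 was higher in cells with a Foxn1 UMI, at 245 against 175 CPM in control, 399 against 43.1 in the library labelled Tbx1neo2/neo2 and 324 against 108 in Foxn11089/1089. Kitl followed, at 105 against 79.3, 90.8 against 20.5 and 81.5 against 18.1 CPM. The gap between the 2 kinds of epithelial cell was wider in both mutant libraries than in control for either cytokine, a difference that was not tested.

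With both transcripts read after thinning to 5000 UMIs per cell, the same direction held in each library. An Il7 UMI was present in 70.2% of cells with a Foxn1 UMI against 58.9% without in control, in 86.0% against 51.8% in the library labelled Tbx1neo2/neo2 and in 75.7% against 51.2% in Foxn11089/1089. For Kitl these shares were 38.8% against 34.6%, 37.3% against 25.7% and 32.1% against 16.5%. Cells with a Kitl UMI also had an Il7 UMI more often than cells without, in 69.4% against 58.9%, 80.0% against 56.1% and 77.2% against 57.8%. Within the cells with a Foxn1 UMI, the log2 ratios against control were 0.70 and 0.40 for Il7 and −0.21 and −0.37 for Kitl, a subset chosen after the data had been seen.

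**Figure D3:**
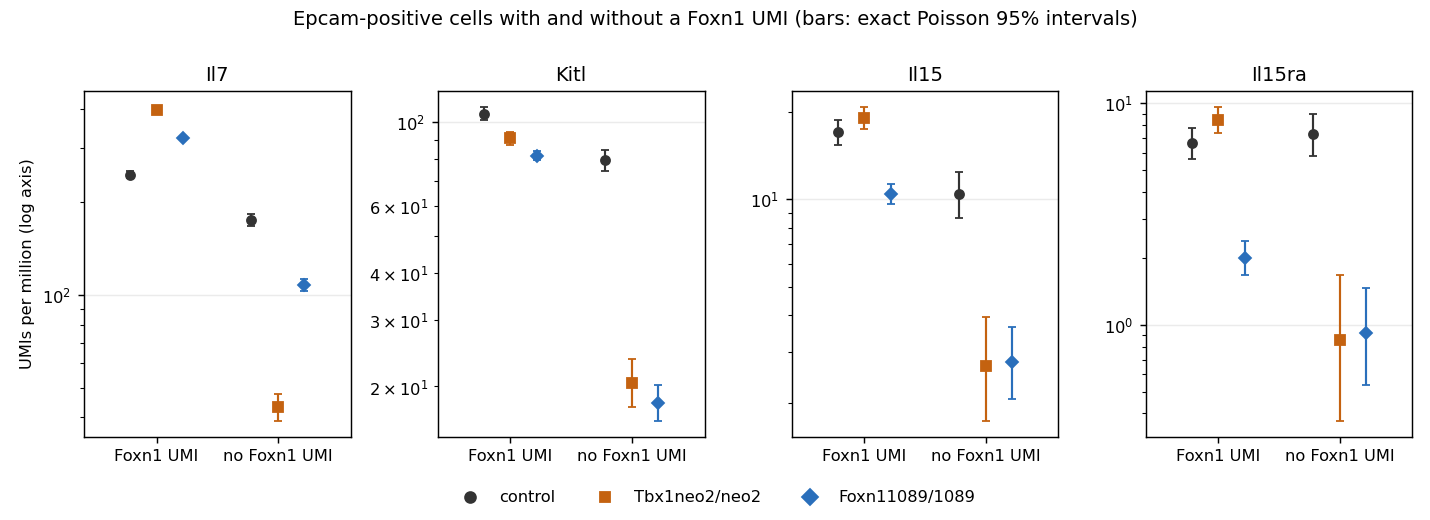
Levels of member genes in CPM (log axis) in Epcam-positive cells with and without a Foxn1 UMI, for each library, with exact Poisson 95% intervals. Il7 falls from 399 to 43.1 CPM between these cells in the library labelled Tbx1neo2/neo2 and from 245 to 175 CPM in control.

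Il15 and Il15ra, the cytokine and the chain that presents it, had different patterns in these cells. Il15 was 17.0 against 10.4 CPM in control, 19.0 against 2.68 in the library labelled Tbx1neo2/neo2 and 10.5 against 2.77 in Foxn11089/1089. Il15ra was level in control, at 6.61 against 7.26 CPM, but 8.45 against 0.858 and 2.02 against 0.922 in the mutant libraries. Kit went the other way, with 1.41 against 5.95 CPM in control, 1.94 against 12.5 and 0.544 against 1.36, and so was higher in the epithelial cells without a Foxn1 UMI in each library.

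The mouse promoter windows of the members, taken from RefSeq on GRCm38.p6 (250 bases before to 50 after each start site), were searched for GACGC, the core of the sequence that FOXN1 binds, and for its reverse complement GCGTC. Entries matched 6 of the 8 members, with 8 windows, and not Il7 and Il15. Of the 8 windows 2 (25%) held a match, against 27.2% of all 32851 windows. They are shown because they are the members with a match near a RefSeq start site. For Kitl the window is chr10:100015571-100015870 on the plus strand, with the match 183 bases before the RefSeq start site. For Il15ra, at 1 of its 2 RefSeq start sites, the window is chr2:11705462-11705761 on the plus strand. There the match is 79 bases before the start site, read on the reverse strand. In GENCODE M21 the genes begin at 100015630 (Kitl) and 11705290 (Il15ra), so both matches lie within the gene by that annotation. Capitals mark the match in each stretch of 29 bases.
Kitl: acccagacagggGACGCaccaggctcgat
Il15ra: actggggaggggGCGTCactgcaggctgc
The other Il15ra window and the windows of Kit, Flt3, Flt3l and Il7r had no match. A match describes the letters alone, and its share among the members was near that of all windows.

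Among the receptors, Il7r, the alpha chain of the IL-7 receptor, was found in Ptprc-positive cells, at 33.3 CPM (30.6 to 36.3, from 541 UMIs) in control, 36.4 (32.7 to 40.4, 349 UMIs) in the library labelled Tbx1neo2/neo2 and 47.6 (42.9 to 52.8, 363 UMIs) in Foxn11089/1089. Cdh5-positive cells held 0 UMIs in each library, and red blood cells 3.75, 0.134 and 0.515 CPM. Epcam-positive cells, at 2.29, 0.0553 and 0.0618 CPM, were no higher than red blood cells. Against control the log2 ratio was 0.13 (−0.07 to 0.32) for the library labelled Tbx1neo2/neo2 and 0.52 (0.32 to 0.71) in Foxn11089/1089. Against the median of all genes these were −0.25 and 0.29, at percentiles 35.5 and 68.7. The first interval lay below that median and the second above it. Thinned shares of Ptprc-positive cells with an Il7r UMI were 14.2%, 15.3% and 20.4% (37.2%, 48.7% and 49.1% without thinning).

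The Foxn11089/1089 ratio of Il7r depended on which cells were counted. In all cells with a Ptprc UMI, whatever other markers they held, the levels were 36.8, 46.0 and 34.7 CPM and the Foxn11089/1089 ratio was −0.08. Cells with several source markers, which are outside the 4 sources, held 31.0%, 71.4% and 39.8% of the Il7r UMIs of their libraries and 20.2%, 48.8% and 40.0% of the Kit UMIs. These shares were highest in the library labelled Tbx1neo2/neo2, whose Ptprc-positive cells were few and deep. Fewer cells with a transcript and less of it per cell cannot be told apart in these summed levels.

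**Figure D4:**
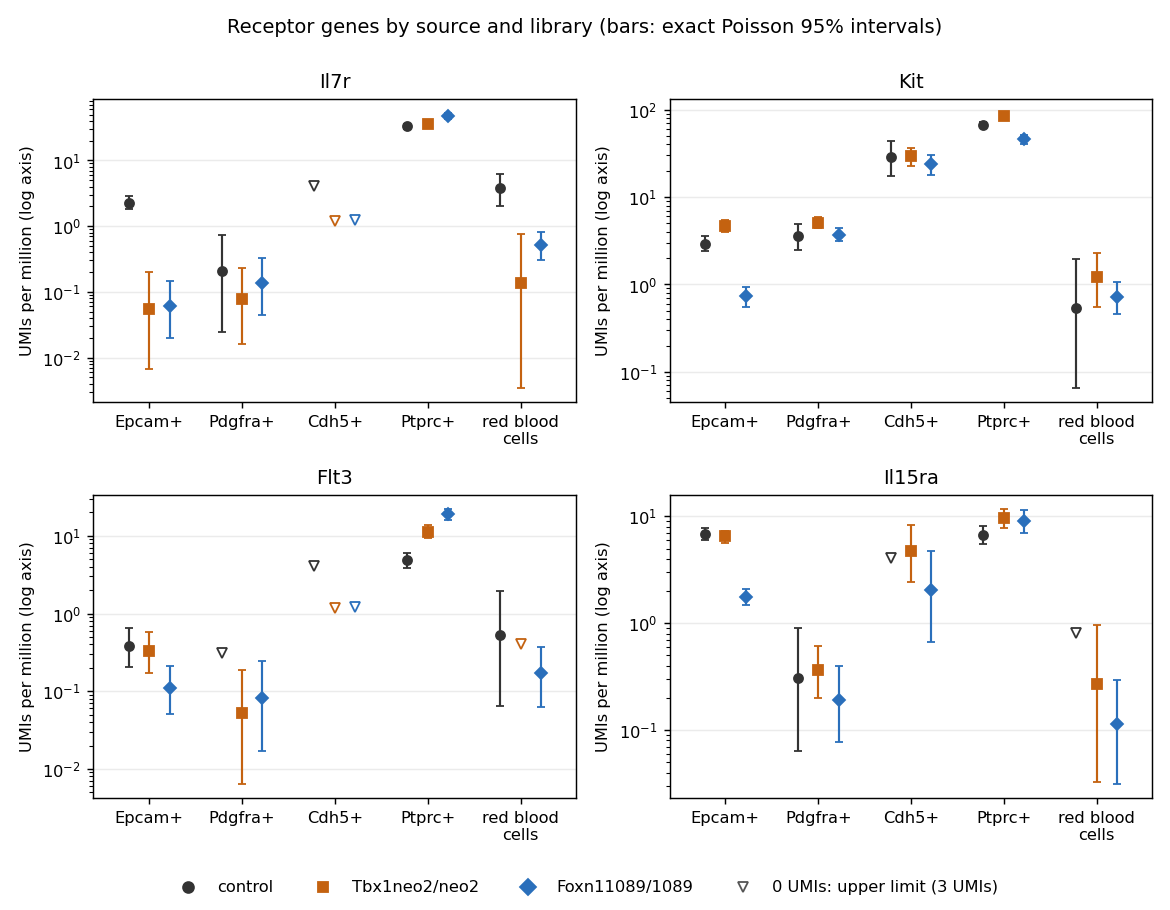
Levels of the 4 receptor genes in CPM (log axis) in 4 cell sources and red blood cells of each library, with exact Poisson 95% intervals. Open triangles mark 0 UMIs, drawn at the level that 3 UMIs would give. Il7r, Kit and Flt3 are highest in Ptprc-positive cells in the 3 libraries, and Il15ra is at a similar level in Ptprc-positive and Epcam-positive control cells, with 6.71 and 6.83 CPM.

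Kit, the receptor tyrosine kinase for KIT ligand, was highest in Ptprc-positive cells, at 67.6 CPM (63.6 to 71.7), 85.6 (79.9 to 91.7) and 45.7 (41.0 to 50.7). Cdh5-positive cells came next with 28.4, 29.3 and 23.6 CPM, Pdgfra-positive cells held 3.58, 5.08 and 3.73 CPM and Epcam-positive cells 2.93, 4.67 and 0.729 CPM. This order of summed levels was the same in each library, but mesenchyme and epithelium were apart beyond counting error in Foxn11089/1089 alone. Thinned shares of Cdh5-positive, Pdgfra-positive and Epcam-positive cells with a Kit UMI were 12.8%, 1.76% and 1.22% in control and 12.1%, 1.77% and 0.265% in Foxn11089/1089, but 2.56%, 2.54% and 3.09% in the library labelled Tbx1neo2/neo2, where no order could be read. In Ptprc-positive cells the log2 ratio was 0.34 (0.21 to 0.47) in the library labelled Tbx1neo2/neo2, within 0.04 of the median of all genes, and −0.57 (−0.74 to −0.39) in Foxn11089/1089, which was −0.79 against that median. The Foxn11089/1089 ratio kept its sign in 12 of 12 alternatives, between −0.90 and −0.38. Thinned shares of cells with a Kit UMI were 28.2%, 29.4% and 15.7%, against 0%, 0.282% and 0.132% of red blood cells.

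Flt3, the receptor of FLT3 ligand, was the member more than 2-fold above control in Ptprc-positive cells of both mutant libraries. Its levels were 4.87 CPM (3.85 to 6.06, from 79 UMIs) in control, 11.4 (9.34 to 13.7, 109 UMIs) in the library labelled Tbx1neo2/neo2 and 18.9 (15.9 to 22.2, 144 UMIs) in Foxn11089/1089. The 3 intervals were apart. Epcam-positive cells held 0.381, 0.332 and 0.111 CPM, and Cdh5-positive cells 0 UMIs in each library. The log2 ratios were 1.22 (0.79 to 1.66) and 1.96 (1.55 to 2.37), or 0.85 and 1.73 above the median of all genes, at percentiles 90.8 and 97.1. They kept their sign in 11 of 11 alternatives each, between 0.47 and 1.45 and between 1.64 and 2.26. The thinned shares, 2.48%, 3.95% and 10.9%, were in the same order, with intervals that overlapped for control and the library labelled Tbx1neo2/neo2.

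Of 7 member genes with enough UMIs in Ptprc-positive cells, 1 was more than 2-fold higher (Flt3) and 1 more than 2-fold lower (Il7, with 9 against 31 UMIs) in the library labelled Tbx1neo2/neo2, where 15% of all genes were higher and 2.98% lower. Il7 passed the UMI minimum there through the control library, so its call is no result about the members. Its level there was below that of red blood cells, and its ratio ran from −1.42 to 1.44 over the alternatives, with 9 of 11 keeping the sign. In Foxn11089/1089, 1 was higher (Flt3) and 0 lower, where 11.5% were higher and 5.74% lower. The median log2 ratio of the members was 0.34 and 0.43, against 0.38 and 0.22 for all genes.

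Il15ra was shared by hematopoietic cells and epithelium in control, with 6.71 CPM (5.51 to 8.10) in Ptprc-positive and 6.83 (5.98 to 7.76) in Epcam-positive cells. In the library labelled Tbx1neo2/neo2 the levels were 9.60 (7.74 to 11.8) and 6.49 (5.69 to 7.38). In Foxn11089/1089 they were 9.05 (7.05 to 11.5) and 1.77 (1.49 to 2.08), so the 2 sources were 5.12-fold apart there. The epithelial log2 ratio for Foxn11089/1089 was −1.95 (−2.26 to −1.64), at percentile 3.601 of all genes, and it kept its sign in 11 of 11 alternatives between −2.18 and −1.71. Together with Il15 it makes a pair whose epithelial levels were both lower in that library.

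The Ptprc-positive cells were a mix that differed between the libraries: at least 2 of 7 thymocyte markers (Cd3d, Cd3e, Cd3g, Lck, Tcf7, Bcl11b and Thy1) were in 67.3%, 68.4% and 43.2% of them. At least 2 of 6 innate-like lymphoid markers (Ccl5, Klrd1, Gzmb, Gzma, Nkg7 and Il2rb) were in 68.3%, 62.6% and 44.2%. These 6 markers summed to 2803, 2353 and 1634 CPM. A UMI of the mast markers Cpa3 or Ms4a2 was in 62.6%, 60.4% and 31.9%, with no UMI of Ms4a2 in the mutant libraries. At least 2 of 6 myeloid markers were in 91.1%, 92.0% and 86.7%, which left 34, 4 and 17 cells with thymocyte but not myeloid markers. After these counts had been seen, a subset with at least 2 thymocyte markers and fewer than 2 of Csf1r, C1qa, C1qb and Lyz2 was formed. It held 565, 120 and 121 cells, with medians of 21316, 58512 and 35817 UMIs. Cells with innate-like lymphoid markers were not left out of it, so it cannot be read as early T cells alone.

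In these cells with thymocyte markers Il7r, Kit, Flt3 and Il15ra had the directions seen in all Ptprc-positive cells. Of the members with enough UMIs, 1 (Flt3) was more than 2-fold higher and 0 were lower in each comparison, where 10.8% and 7.65% of all genes were higher and 3.04% and 6.22% lower. Flt3 was 2.56, 6.98 and 12.2 CPM, from 30, 49 and 54 UMIs, and its log2 ratios were 1.45 (0.76 to 2.15) and 2.26 (1.59 to 2.95). Kit was 66.7, 100 and 47.6 CPM, with ratios of 0.59 (0.44 to 0.74) and −0.49 (−0.71 to −0.26). Il7r was 37.9, 42.2 and 48.7 CPM, with ratios of 0.15 (−0.06 to 0.37) and 0.36 (0.12 to 0.60), Il15ra was 7.17, 11.97 and 10.6 CPM, and Flt3l was nearly level at 8.62, 8.27 and 8.16 CPM.

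Cells of this subset with a UMI of Il2ra, whose protein is used to stage early thymocytes, had less Flt3 than those without, at 1.10 against 3.48 CPM in control, 5.50 against 8.43 and 6.47 against 14.1. The gap exceeded counting error in control alone, with a log2 ratio of −1.66 (−3.40 to −0.25). Outside the subset, cells with neither or both sets of markers held more Flt3, at 11.5, 35.5 and 34.0 CPM, and they were 28.2%, 16.6% and 44.6% of the Ptprc-positive cells. Cells with myeloid but not thymocyte markers numbered 40, 36 and 37 and held 5.96, 9.61 and 6.75 CPM of Il7r and 13.9, 13.6 and 13.5 CPM of Il15.

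**Figure D5:**
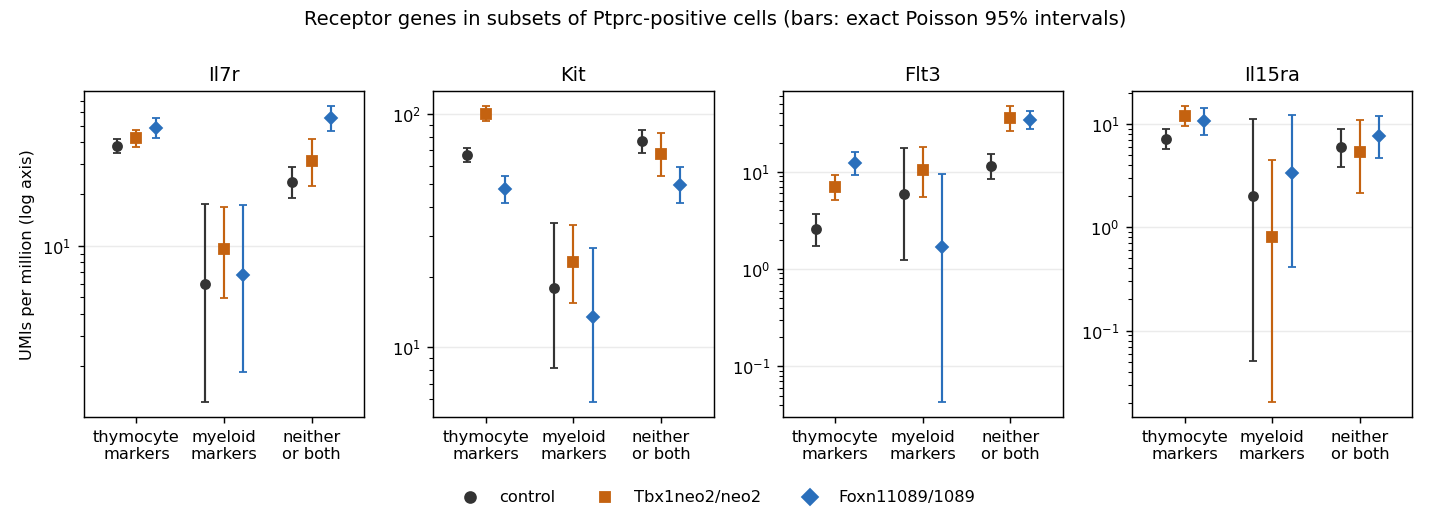
Levels of receptor genes in CPM (log axis) in subsets of Ptprc-positive cells of each library, with exact Poisson 95% intervals. In cells with thymocyte markers Flt3 is 2.56, 6.98 and 12.2 CPM and Kit is 66.7, 100 and 47.6 CPM in control, the library labelled Tbx1neo2/neo2 and Foxn11089/1089.

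The genes that act with these receptors were read from fixed lists. Of 14 genes of the common gamma chain pathway in Ptprc-positive cells, 1 was more than 2-fold higher (Jak3) and 1 lower (Pim1) in the library labelled Tbx1neo2/neo2, where 15% of all genes were higher and 2.98% lower. In Foxn11089/1089, 2 were higher (Il2rb and Socs3) and 2 lower (Stat5a and Pim1), where 11.5% and 5.74% of all genes were. The medians of the list were 0.05 and 0.01, against 0.38 and 0.22 for all genes. Jak3, the kinase bound to the common gamma chain, was 6.41, 13.8 and 9.58 CPM, and Il2rb, a receptor chain for IL-15, was 2.34, 2.19 and 5.64 CPM. Il2rg, the common gamma chain itself, was 89.6, 79.7 and 57.5 CPM. Stat5a was 31.0, 31.5 and 12.6 CPM and Pim1, a kinase gene that STAT5 induces, was 677, 326 and 300 CPM, whereas Socs3, a feedback inhibitor of cytokine signaling, was 13.9, 14.6 and 34.5 CPM. In Epcam-positive cells 1 of 13 was higher (Socs2) and 2 lower (Il2rg and Pim1) in the library labelled Tbx1neo2/neo2, where 16.7% of all genes were higher and 4.88% lower. In Foxn11089/1089, 0 were higher and 5 lower (Il2rg, Stat5a, Socs1, Socs3 and Pim1), where 16.3% and 8.44% of all genes were. Epithelial Il2rg passed the UMI minimum in both comparisons through the control library, with 9 and 8 UMIs against 116. The part of lymphoid RNA in its ratios was not tested. The medians of the list in Epcam-positive cells were 0.04 and −0.63, against 0.40 and 0.27 for all genes. Epithelial Pim1 was 122, 48.4 and 25.4 CPM and Socs3 was 100, 74.7 and 44.1 CPM.

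Of 10 genes of KIT and FLT3 signaling, 4 were higher (Sh2b3, Cbl, Spred1 and Dusp6) and 0 lower in Ptprc-positive cells of the library labelled Tbx1neo2/neo2, where 15% of all genes were higher and 2.98% lower. There were 0 in either direction in Foxn11089/1089, where 11.5% and 5.74% of all genes were, with medians of 0.77 and 0.74 against 0.38 and 0.22 for all genes. In Epcam-positive cells of the library labelled Tbx1neo2/neo2, 2 were higher (Gab2 and Cbl) and 1 lower (Pik3cd, with 8 against 35 UMIs). Of all genes there, 16.7% were higher and 4.88% lower. In Epcam-positive cells of Foxn11089/1089, 3 were higher (Gab2, Pik3r1 and Cbl) and 1 lower (Lyn), where 16.3% and 8.44% of all genes were. Epithelial Gab2 passed the UMI minimum in both comparisons through the mutant library, with 54 and 129 UMIs against 24. Epithelial Pik3cd passed it through the control library in the comparison where it was called. These calls are no result about the list. The epithelial medians were 0.49 and 0.58, against 0.40 and 0.27 for all genes. Of the 3 proteases that release membrane ligands, 2 were higher in Ptprc-positive cells of the library labelled Tbx1neo2/neo2 (Adam17 and Mmp9) and 1 in Foxn11089/1089 (Mmp9). Of all genes in these cells 15% and 11.5% were higher, and the protease medians were 1.05 and 0.57. In the cells with thymocyte markers 0 of 2 with enough UMIs were past 2-fold in either library. Of all genes there 10.8% and 7.65% were higher and 3.04% and 6.22% lower. The protease medians there were −0.12 and −0.19, against 0.33 and 0.20 for all genes. Mmp9, which releases KIT ligand in bone marrow, was 0.616, 2.92 and 7.22 CPM in Ptprc-positive cells, from 10, 28 and 55 UMIs. For Foxn11089/1089 it passed the UMI minimum through that library, so its call there is no result about the list. Epithelial Adam10 was 78.4, 47.1 and 54.8 CPM. Of other cytokine genes, 3 or 4 of 7 had enough UMIs in Epcam-positive cells, with 0 higher and 1 lower in each library (Il4) and medians of −0.50 and −0.39. Of all genes in these cells 16.7% and 16.3% were higher and 4.88% and 8.44% lower. Epithelial Il4 had 3 and 29 UMIs against 35 in control, so it passed the UMI minimum in both comparisons through the control library. Ptprc-positive control cells held 29.7 CPM of it. Tslp, a cytokine whose receptor pairs with IL-7 receptor alpha, was mainly mesenchymal, with 10.7, 7.55 and 2.29 CPM in Pdgfra-positive cells, and its ratio there was −2.22 (−2.65 to −1.79) in Foxn11089/1089. Epcam-positive cells held 0.586, 0.415 and 0.988 CPM of it. Its receptor chain Crlf2 was 39.0, 26.2 and 34.9 CPM in Ptprc-positive cells.

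The genes with the most similar pattern to each member, by Pearson's r of log2(CPM + 1) over 15 values (5 sources in 3 libraries, which share libraries and depth), are given as a description. For Il7 the closest of 13446 genes was Pax1 (r = 0.989), a transcription factor of the pharyngeal pouch, then Pls1 and Trp63. Kitl was most like Prrg3 (r = 0.974), Bok and Nhsl1, and Il15 most like Gm12758 (r = 0.918), Map3k6 and Mtm1. Among the receptors Flt3 was most like Cdh17 (r = 0.993), Wfdc21 and Stfa2, Kit most like Egln3 (r = 0.959), Mycn and Gfod1, Il7r most like Was, Clec12a and Lrch4 (r = 0.984 for the last), and Il15ra most like Rasgef1b (r = 0.946), Tapbpl and Erap1. Flt3l was most like Fmnl1 (r = 0.972), Clec12a and Milr1.

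In the genome (GRCm38, GENCODE M21) the cytokine genes lie at chr3:7569994-7613760 (Il7, minus strand), chr10:100015630-100100416 (Kitl, plus), chr7:45125922-45136231 (the Flt3l feature, minus) and chr8:82331632-82403222 (Il15, minus). The receptor genes lie at chr15:9505788-9530176 (Il7r, minus), chr5:75574916-75656722 (Kit, plus), chr5:147330741-147400489 (Flt3, minus) and chr2:11705290-11734317 (Il15ra, plus).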

How the data were processed

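Per the labels, thymic lobes were digested with trypsin and read by 3' single-cell RNA-Seq. The authors aligned reads to mm10 and deposited the values as raw UMI counts per gene and cell barcode, without normalization, and the submitters' processing notes name Cell Ranger 3.0.0 and Seurat. Kept cells had 200 genes or more and less than 20% of UMIs from mitochondrial genes, and a cell with at least 20% of its UMIs from hemoglobin genes counted as a red blood cell. The other sources were taken by at least 1 UMI of Epcam, Pdgfra, Cdh5 or Ptprc and 0 of the other 3. Doublets stayed in. Scrublet in scanpy 1.11.5 marked 329, 265 and 1239 likely doublets, which were left out in 1 alternative.

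UMIs were summed per gene, source and library and given as CPM with exact Poisson intervals (scipy 1.17.1), and the sums of a pair of libraries were compared by exact binomial intervals of 95%. Shares of cells with a UMI used cells thinned at random to 5000 UMIs, with Clopper-Pearson intervals. A gene entered a comparison with at least 30 UMIs in the pair of libraries, and past 2-fold was the call. A count of 0 was given a floor of 3 UMIs. Deep cells weigh more in CPM than shallow ones, and the per-cell mean was an alternative. Other alternatives changed the marker threshold, filters, scaling and cells counted. The intervals were tested on simulated data. Python 3.11.15, numpy 2.4.6, pandas 2.3.3 and matplotlib 3.10.9 were used.

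Named genes were the 8 members, the 34 genes of 4 pathway lists, the genes used as markers, Tbx1 and Foxn1, and the 3 genes most like each member among those with at least 300 UMIs. The members and lists were chosen with earlier results of these data known. Of 27998 feature IDs, 27722 matched GENCODE M21, which gave the coordinates.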

Additional observations from a re-analysis of the deposited data

Results flagged for a closer look

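In 3 cases a gene was higher than control in one cell source and lower in another of the same library, with intervals that did not include 0 on either side. The difference between the sources was not tested in any of them, since each genotype has 1 library. Il7r in Foxn11089/1089 had a log2 ratio of 0.52 in Ptprc-positive cells (363 against 541 UMIs) and −5.21 in Epcam-positive cells (5 against 78 UMIs), where the level was no higher than in red blood cells. Flt3 in Foxn11089/1089 was 1.96 in Ptprc-positive cells and −1.78 in Epcam-positive cells, the latter from 9 against 13 UMIs. Il15 in the library labelled Tbx1neo2/neo2 was 0.76 in Ptprc-positive cells (52 UMIs in each library) and −0.95 in Pdgfra-positive cells (133 against 66 UMIs).

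Signal above control also appeared in cells outside the 4 sources. Red blood cells of Foxn11089/1089 held 877 Il7 UMIs against 22 in control, a log2 ratio of 2.09, and 249 Kitl UMIs against 9, a log2 ratio of 1.57. The same library had the larger number of red blood cells, and a parathyroid marker UMI was in 49.1% of them. Cells with none of the 4 markers held 253 Il7 UMIs against 257, a log2 ratio of 0.29.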

How the results depend on the processing

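No paired analysis was possible because each genotype has 1 library, and for the same reason no replicate could be left out. Of 421 alternative values for 40 log2 ratios, 330 stayed within the main counting interval and 85 moved outside it without reversing a call. The sign differed from the main value in 44, and in 6 of these the main interval had excluded 0. All values below are log2 ratios against control, with the library labelled Tbx1neo2/neo2 written as Tbx1 and Foxn11089/1089 as Foxn1, and the cause of each move was not tested. The main values were 0.47 and 0.31 for epithelial Il7, −0.41 and −0.53 for epithelial Kitl, 0.13 and 0.52 for Il7r and 0.34 and −0.57 for Kit in Ptprc-positive cells (Tbx1, then Foxn1). Counting cells whatever other markers they held gave 0.19 for Il7 in Tbx1, −0.63 and −0.40 for Kitl, −0.083 for Il7r in Foxn1 and 0.45 for epithelial Il7r in Tbx1, against −5.37. Wider marker lists gave 0.38 and 0.23 for Il7 and 0.39 and 0.23 for Il7r, and leaving out doublets gave 0.35 for Il7 in Foxn1. Thinned cells gave −0.62 for Kitl in Foxn1, 0.35 for Il7r in Tbx1, −0.90 for Kit in Foxn1 and −0.27 for Il15ra in Ptprc-positive cells of Tbx1, against 0.52. Per-cell means gave 0.22 for Il7 in Foxn1, −0.64 for Kitl in Foxn1, −0.10 and 0.31 for Il7r, 0.025 for Kit in Tbx1 and 0.78 for epithelial Flt3l in Tbx1, against −0.81. Scaling by the median of ratios gave 0.10 and 0.080 for Il7, −0.78 and −0.76 for Kitl, −0.26 and 0.25 for Il7r and −0.050 and −0.83 for Kit. Leaving out cells with parathyroid or thyroid markers gave 0.78 and 0.52 for Il7 and −0.13 and −0.35 for Kitl. The planned thymocyte-marker subset, of few cells, gave −1.44 for Il7r in Tbx1 and 0.49 and −0.38 for Kit. Among settings chosen after seeing the data, cells with a Foxn1 UMI gave 0.70 and 0.40 for Il7 and −0.21 and −0.37 for Kitl, epithelial cells with under 2 thymocyte markers gave 0.60 for Il7 and −0.27 for Kitl in Tbx1, and the wider thymocyte-marker subset gave 0.59 for Kit in Tbx1, or, whatever other markers its cells held, 0.38 and −0.13 for Il7r.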
